A study of Mus musculus with 426 samples.

Results

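Mouse chromosome 4 was followed as the 295 consecutive genomic bins that the deposited DNA counts place on it, out of 5000 bins over all chromosomes, of which 4730 are autosomal. The bins run from base 1 to base 155630120 of the mm9 build, with a median length of 489822 bases and a longer bin at the start (bases 1 to 3816417). They were taken by chromosome number alone, so every bin is a member whatever its level, and all 295 were tested in every comparison across bins. For each single cell with at least 50000 DNA reads, a bin's level is its read count divided by that cell's mean count over the bins of chromosomes 1 to 19. A level of 1 is therefore the autosomal average of the same cell, and gains elsewhere lower all other levels. The absolute number of copies was not measured, so a level under 1 is low only relative to the rest of the autosomes.

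The cells come from a transplant model of pancreatic cancer in 3 C57BL/6 male mice. The line KPC1199-EGFP, derived from mouse pancreatic cancer and marked with green fluorescent protein (GFP), was placed in matrigel (50000 cells) in the pancreas at 6 to 8 weeks of age, and tumours grew for a further 6 to 8 weeks. All animals therefore carry the same transplanted line in an immune-competent host of 1 strain and sex. Primary tumours were sorted into CD45+ cells (the pan-leukocyte surface protein, here the host reference), GFP+ cells, EpCAM+ cells (an epithelial surface protein) and GFP+EpCAM+ cells. GFP+ cells were also sorted from peritoneum in all 3 mice and from kidney, liver and spleen in mice 2 and 3. DNA and RNA of each cell were amplified in 1 tube by GTO, which divides the reads afterwards into exonic reads, counted as RNA, and nonexonic reads, counted as DNA. An exonic read of genomic origin thus counts as RNA, and a nonexonic read of a transcript counts as DNA.

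The DNA filter kept 318 of 418 cells: 53 CD45+, 63 GFP+ primary, 22 EpCAM+, 27 GFP+EpCAM+, 74 peritoneum, 40 kidney, 10 liver and 29 spleen cells. They had 50522 to 3255873 reads each, with a median of 584486, or 116.9 reads per bin. In peritoneum of mouse 1, 2 pairs of libraries differed by less than sampling noise and each pair was counted as 1 cell. The replicate is the mouse, with 3 or 2 animals per sort. The edgeR and limma p-values take their spread from 1 fit over all the sorts fitted together, with no block for the mouse. These sorts come from the same 3 animals, so the p-values do not measure the spread between 2 sorts alone. The exact tests over mice, given for the chromosome 4 level, do not share this spread. Leukocyte markers went with the sorts, and epithelial markers did so only in part. The summed level of 7 leukocyte genes, all 7 detected in every group, was 12200 to 27600 CPM (counts scaled to the library total) across mice in CD45+ cells. It was 5.19 to 77.7 CPM in GFP+ primary cells. In kidney that sum was 57.9 to 3260 CPM, the widest range among the other sorts. The 6 epithelial genes summed to 733 to 9240 CPM in GFP+ primary cells against 110 to 1640 CPM in CD45+ cells, with overlap. They summed to 9700 to 20900 CPM in EpCAM+ cells, 127 to 8580 CPM in peritoneum and 208 to 344 CPM in spleen. The 7 fibroblast and mesenchymal genes summed to 3790 to 21100 CPM in GFP+ primary cells and 15700 to 26700 CPM in spleen, against 46.3 to 232 CPM in CD45+ cells.

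Chromosome 4 is followed in pancreatic tumours because it holds the mouse Cdkn2a and Cdkn2b genes. Cdkn2a encodes p16Ink4a, an inhibitor of the cyclin D kinases Cdk4 and Cdk6, and, from another start site and reading frame, p19Arf, which binds Mdm2 and so spares p53. Cdkn2b encodes p15Ink4b, a close relative of p16Ink4a, and the neighbour Mtap encodes an enzyme of methionine salvage that is often lost together with both. The locus can be inactivated by deletion or by methylation of CG dinucleotides near its start sites, and a mouse chromosome is acrocentric, with its long arm taking up nearly the whole length.

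Start sites of the locus are shown because the results below turn on whether its RNA is present. They are the 300-base windows given by RefSeq for GRCm38.p6, from 250 bases before to 50 bases after a start, with every CG dinucleotide in capitals. The motif searched was CG, which reads the same on both strands. All 3 lie on the minus strand.
Cdkn2a, chr4:89294570-89294869: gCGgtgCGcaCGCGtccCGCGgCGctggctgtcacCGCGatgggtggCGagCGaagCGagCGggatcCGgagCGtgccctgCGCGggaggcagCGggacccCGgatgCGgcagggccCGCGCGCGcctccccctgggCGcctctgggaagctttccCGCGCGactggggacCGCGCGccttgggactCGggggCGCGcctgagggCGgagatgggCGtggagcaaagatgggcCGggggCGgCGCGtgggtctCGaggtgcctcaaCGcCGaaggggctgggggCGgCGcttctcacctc
Cdkn2a, chr4:89282143-89282442: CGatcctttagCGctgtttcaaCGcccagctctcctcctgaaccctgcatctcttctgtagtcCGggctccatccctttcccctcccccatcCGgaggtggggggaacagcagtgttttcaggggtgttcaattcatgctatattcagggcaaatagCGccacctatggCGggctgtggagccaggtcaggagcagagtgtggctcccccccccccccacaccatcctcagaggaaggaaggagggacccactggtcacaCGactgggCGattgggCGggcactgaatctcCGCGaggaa
Cdkn2b, chr4:89310983-89311282: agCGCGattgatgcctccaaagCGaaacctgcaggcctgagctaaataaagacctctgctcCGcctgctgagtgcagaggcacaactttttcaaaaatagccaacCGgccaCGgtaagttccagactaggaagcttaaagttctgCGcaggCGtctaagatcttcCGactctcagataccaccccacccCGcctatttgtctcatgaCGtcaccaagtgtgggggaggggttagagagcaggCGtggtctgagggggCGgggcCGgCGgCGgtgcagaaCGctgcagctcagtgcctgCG
The first window holds 45 CG dinucleotides, a number reached by 1.93% of 32851 RefSeq promoter windows, against 12 in the other Cdkn2a window (reached by 39.6%) and 18 in the Cdkn2b window (reached by 29.7%). The median over all windows was 7. The bins are given on mm9 and these windows on GRCm38.p6, so no bin could be assigned to Cdkn2a, and the genes enter below only through their RNA. In RefSeq order the locus reads Ifne, Mtap, Cdkn2a, Cdkn2b and Dmrta1.

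Chromosome 4 was lower in every sort of tumour cells than in CD45+ cells, in every mouse. Its mean level over cells was 1.01, 0.939 and 0.971 in CD45+ cells of mice 1, 2 and 3. In GFP+ primary cells it was 0.748, 0.770 and 0.791. In EpCAM+ cells it was 0.745, 0.745 and 0.836. In GFP+EpCAM+ cells the 3 mice gave 0.766, 0.744 and 0.750. The 3 CD45+ values lay above all 9 values of the tumour sorts of the primary tumour, with no overlap. As means over mice these are 0.973 ± 0.0340 (SD, n = 3) for CD45+ cells, 0.770 ± 0.0215 (SD, n = 3) for GFP+, 0.775 ± 0.0526 (SD, n = 3) for EpCAM+ and 0.753 ± 0.0111 (SD, n = 3) for GFP+EpCAM+ cells.

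The metastatic sites lay in the same range. Peritoneum gave 0.761, 0.762 and 0.785 in mice 1, 2 and 3, kidney 0.765 and 0.833 in mice 2 and 3, spleen 0.774 and 0.775, and liver, with 5 cells per mouse, 0.776 and 0.694. All 9 site values were below the lowest CD45+ mouse. In the bulk libraries, which are not replicated, chromosome 4 stood at 0.996 in CD45+ cells of mouse 1, at 0.754 and 0.772 in GFP+ cells of the primary tumours of mice 1 and 2, and at 0.769 in GFP+ cells of the peritoneum of mouse 1. The bulk GFP-negative library of the peritoneum gave 0.955, and that of the primary tumour gave 0.874 from 19523 reads.

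**Figure D1:**
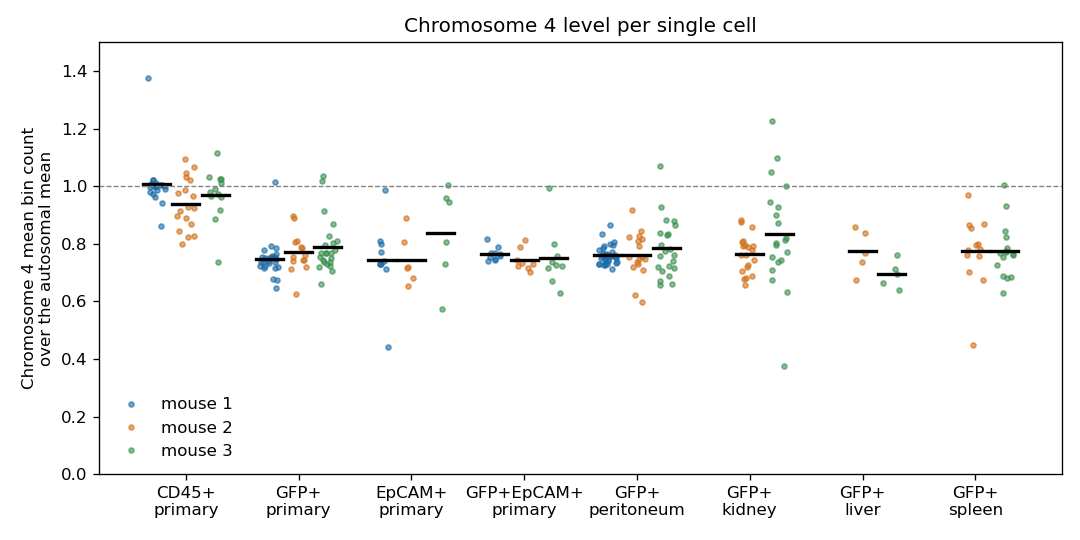
Each point is 1 single cell with at least 50000 DNA reads, coloured by mouse, and the vertical axis is its mean bin count on chromosome 4 over its autosomal mean. Black bars are means over the cells of a mouse: the 3 CD45+ bars lie between 0.939 and 1.01 and the bars of all tumour sorts between 0.694 and 0.836.

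Single cells spread around these means. The lowest, median and highest cell were 0.737, 0.992 and 1.38 among CD45+ cells and 0.624, 0.751 and 1.04 among GFP+ primary cells. A level under 0.85, a limit chosen after the values were seen, was found in 5 of 53 CD45+ cells (9.43%) and 56 of 63 GFP+ primary cells (88.9%). It was found in 17 of 22 EpCAM+ cells (77.3%), 26 of 27 GFP+EpCAM+ cells (96.3%), 67 of 74 peritoneum cells (90.5%), 29 of 40 kidney cells (72.5%), 9 of 10 liver cells and 23 of 29 spleen cells (79.3%). A limit of 0.75 cut through the middle of the tumour cells: 28 of 63 GFP+ primary cells (44.4%) were under it and 46 of the 63 lay between 0.7 and 0.8. Such shares depend on the limit, and cells of a mouse are not replicates.

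Some tumour-sort cells did not carry the lower level. GFP+ primary cells 31 and 28 of mouse 3 had chromosome 4 at 1.04 and 1.02 while the mean of chromosomes 7, 9, 10, 13 and 14 in the same cells was 0.758 and 0.722. Peritoneum cell 81 of mouse 3 (1.07 against 0.767) and kidney cell 55 of mouse 3 (1.05 against 0.759) showed the same combination. In GFP+ primary cell 40 of mouse 1 both values were 1.02, and in EpCAM+ cell 3 of mouse 1 they were 0.988 and 1.01. The highest kidney cell, cell 64 of mouse 3, had 1.23 and 0.972, with leukocyte markers at 25286.7 CPM, and their part in the kidney values was not tested. At the other end stood kidney cell 60 of mouse 3 (0.376, other chromosomes 0.804), EpCAM+ cell 6 of mouse 1 (0.440 and 0.553) and spleen cell 22 of mouse 2 (0.449 and 0.773). The lowest CD45+ cell, cell 80 of mouse 3, had a profile like that of the tumour sorts. Its values were 0.737 and 0.770, with chromosome 3 at 1.30. Its leukocyte markers were at 222.2 CPM, while CD45+ cell 25 of mouse 1 had 80.5 CPM with chromosome 4 at 0.9735. Cell 80 was kept in the CD45+ shares, means and tests, and its origin was not tested.

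Read as 1 chromosome among 19 autosomes, chromosome 4 fell in all 4 comparisons with CD45+ cells, which share the CD45+ samples. The chromosome test was limma on log2 of each chromosome's mean level per mouse and sort, with Benjamini-Hochberg adjustment over the 19. In GFP+ primary cells the level was 0.791 times that of CD45+ cells (95% interval 0.729 to 0.859; limma adjusted p = 5.788e-05), and 7 of 19 chromosomes (36.8%) were called lower: 4, 7, 9, 10, 12, 13 and 14. In GFP+EpCAM+ cells it was 0.775 times (0.714 to 0.841; limma adjusted p = 2.625e-05; 36.8% of chromosomes lower). In EpCAM+ cells it was 0.796 times (0.733 to 0.865; limma adjusted p = 0.0002442; 31.6% lower), and over peritoneum, kidney and spleen together 0.803 times (0.749 to 0.861; limma adjusted p = 1.68e-05; 42.1% lower). Chromosome 4 was the fourth lowest autosome in GFP+ primary cells, after 7, 10 and 12, an order that was not tested. In the same cells chromosomes 3, 5, 2 and 19 stood at 1.32, 1.25, 1.20 and 1.20 times the CD45+ level. Whether the lower level of chromosome 4 is a loss of copies was not tested. The exact two-sided permutation test of the chromosome 4 level alone gave a difference of −0.203 with p = 0.1, the smallest that 3 mice against 3 allow.

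**Figure D2:**
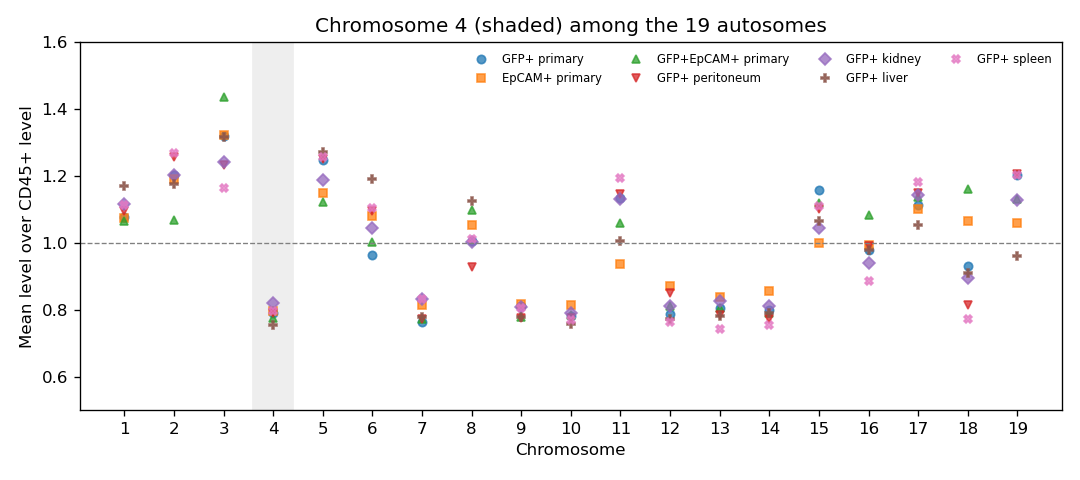
The horizontal axis is the autosome and the vertical axis the mean level over cells and mice in each tumour sort, divided by that of CD45+ cells, with 1 symbol per sort or site. Chromosome 4, shaded, lies below 1 in all 7 sorts, beside chromosomes 7, 9, 10, 13 and 14.

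The sites did not differ detectably from the primary tumour. Against GFP+ primary cells, chromosome 4 was 1.00 times as high in peritoneum (95% interval 0.921 to 1.09; limma adjusted p = 0.9999), 1.04 times in kidney (0.946 to 1.14; limma adjusted p = 0.9929) and 1.01 times in spleen (0.918 to 1.10; limma adjusted p = 0.9369). By limma 0 of 19 autosomes were called in any of the 3 (0.0% lower each), with 1, 0 and 1 at an unadjusted p under 0.05. Changes within the intervals given were not detectable with these mice, and liver was not tested.

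Bin by bin, the lower level was broad and most single bins did not pass the test. Reads were summed per mouse and sort and tested over all 4730 autosomal bins with edgeR's quasi-likelihood test and Benjamini-Hochberg adjustment at 0.05. In GFP+ primary against CD45+ cells, 6 of 295 bins (2.03%) were called lower and none higher, where 0.677% and 0.486% of all autosomal bins were called lower and higher. In GFP+EpCAM+ cells 48 bins (16.3%) were lower (5.77% of all bins) and 1 higher (3.07%). In EpCAM+ cells 9 (3.05%) were lower (0.909%) and none higher (0.402%), and over the sites 15 (5.08%) were lower (2.73%) and none higher (1.01%). The median log2 difference of the 295 bins was −0.41, −0.50, −0.27 and −0.36 in these comparisons, beside −0.03, −0.06, 0.01 and −0.01 over all autosomal bins. An unadjusted p under 0.05 was reached by 134, 189, 71 and 146 of the 295 bins, counting both directions. No share of all autosomal bins is set beside these 4 counts, so they do not show whether chromosome 4 stood out from the other autosomes.

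Leaving out mouse 2 or mouse 3 left 0 called bins in GFP+, GFP+EpCAM+ and EpCAM+ cells, and DESeq2 called 82, 121 and 24 of the 295 bins, beside 9.37%, 11.7% and 2.79% of all autosomal bins. Blocking on the mouse gave 113 in GFP+EpCAM+ cells (38.3%, beside 12.2%) and 25 over the sites (8.47%, beside 4.14%). The level was lower in GFP+ than in CD45+ cells in 3 of 3 mice at 185 bins (62.7%, against 28.1% of autosomal bins). At 105 bins (35.6%) the GFP+ mice lay below all CD45+ mice with no overlap, where 14.6% of autosomal bins did. Between each site and the primary tumour edgeR called 0 of 295 bins (0.0% of all bins in peritoneum, kidney and spleen). DESeq2 and limma called 0 as well. An unadjusted p under 0.05 was reached by 3, 8 and 13 bins, with no share of all autosomal bins to read these counts against.

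Most of the 5 called bins with the most negative difference in GFP+ primary cells lay nearer the start than the end of the chromosome. The lowest of them lay nearer the end. The lowest was chr4:102062159-102524236, at 1.20, 3.09 and 5.38 in CD45+ cells of mice 1 to 3 and 0.649, 0.535 and 0.747 in GFP+ cells, a log2 difference of −1.94 (SE 0.28; edgeR adjusted p = 0.0002797). The next, chr4:8629491-9084829, was at 3.06, 3.37 and 5.67 against 0.688, 1.43 and 1.20 (log2 −1.58, SE 0.37; edgeR adjusted p = 0.02835). In both, the groups did not overlap. In the lowest bin the GFP+ mice were all below 1 and the CD45+ mice all above it, and in the next the CD45+ mice were above 1 while the GFP+ mice lay on both sides of it.
Single CD45+ cells reached 27.2 and 36.5 times their autosomal mean in these 2 bins, and 14 of 53 CD45+ cells exceeded 3 in the bin at 8629491 and 11 in the bin at 102062159. The bin chr4:52805574-53271841 was at 1.02, 3.38 and 1.66 in CD45+ and 0.776, 0.703 and 1.08 in GFP+ cells (log2 −1.21, SE 0.28; edgeR adjusted p = 0.02764), where mouse 1 of the CD45+ cells and mouse 3 of the GFP+ cells overlapped. The first bin of the chromosome (1.21, 1.35 and 1.94 against 0.810, 1.02 and 0.588; log2 −0.93) and chr4:34713046-35199400 (1.39, 1.36 and 0.873 against 0.675, 0.557 and 0.643; log2 −0.83) did not overlap. The sixth called bin was chr4:47650533-48112271 (log2 −0.79; edgeR adjusted p = 0.03895).

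The bin called higher in GFP+EpCAM+ cells, named here after its values were seen, was chr4:88369972-88927114 (log2 1.44, SE 0.44; edgeR adjusted p = 0.04134). As a median over cells on the within-cell scale described next it was 0.825, 2.81 and 5.06 in mice 1 to 3 of GFP+EpCAM+ cells against 1.05, 1.01 and 0.980 in CD45+ cells. Mouse 1 thus lay below its CD45+ cells and mice 2 and 3 above.

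To read the profile without the few cells that raise a mean, each bin was set, within each cell of at least 200000 reads, against the CD45+ median of that bin and against the cell's own median over all autosomal bins. This within-cell scale was added after the data were seen. The scale sets the pooled CD45+ cells near 1 by construction, so their values on it show spread only and are no comparison with the tumour cells. On it, the 295 bins had a median of 0.782 over the 218 tumour-sort cells. Over these pooled cells 294 of 295 bins (99.7%) were under 1, against 44.7% of autosomal bins. From the 5th to the 95th percentile the 295 bins ran from 0.725 to 0.903. The lowest bin was again chr4:102062159-102524236 at 0.619, followed by chr4:8629491-9084829 at 0.630 and chr4:136184482-136630875 at 0.667. The highest was chr4:69440935-69945462 at 1.02. Within single sorts, the bins under 1 numbered from 260 in spleen (88.1%, against 47.8% of autosomal bins) to 294 in EpCAM+ cells (99.7%, against 48.7%). The highest bin was chr4:129161265-129637283 in GFP+EpCAM+ cells (1.89) and in GFP+ primary cells (1.38). In spleen it was chr4:155120394-155630120 (1.31). Over all tumour sorts together no bin was under 0.5. By sort, 11 bins were under 0.5 in liver, where 31 autosomal bins were and which has 10 cells, and 1 bin in EpCAM+ cells, of 2 autosomal bins. The lowest of them were chr4:134786497-135252399 at 0.336 in liver and chr4:8629491-9084829 at 0.483 in EpCAM+ cells, and no bin of any sort was under 0.2.

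**Figure D3:**
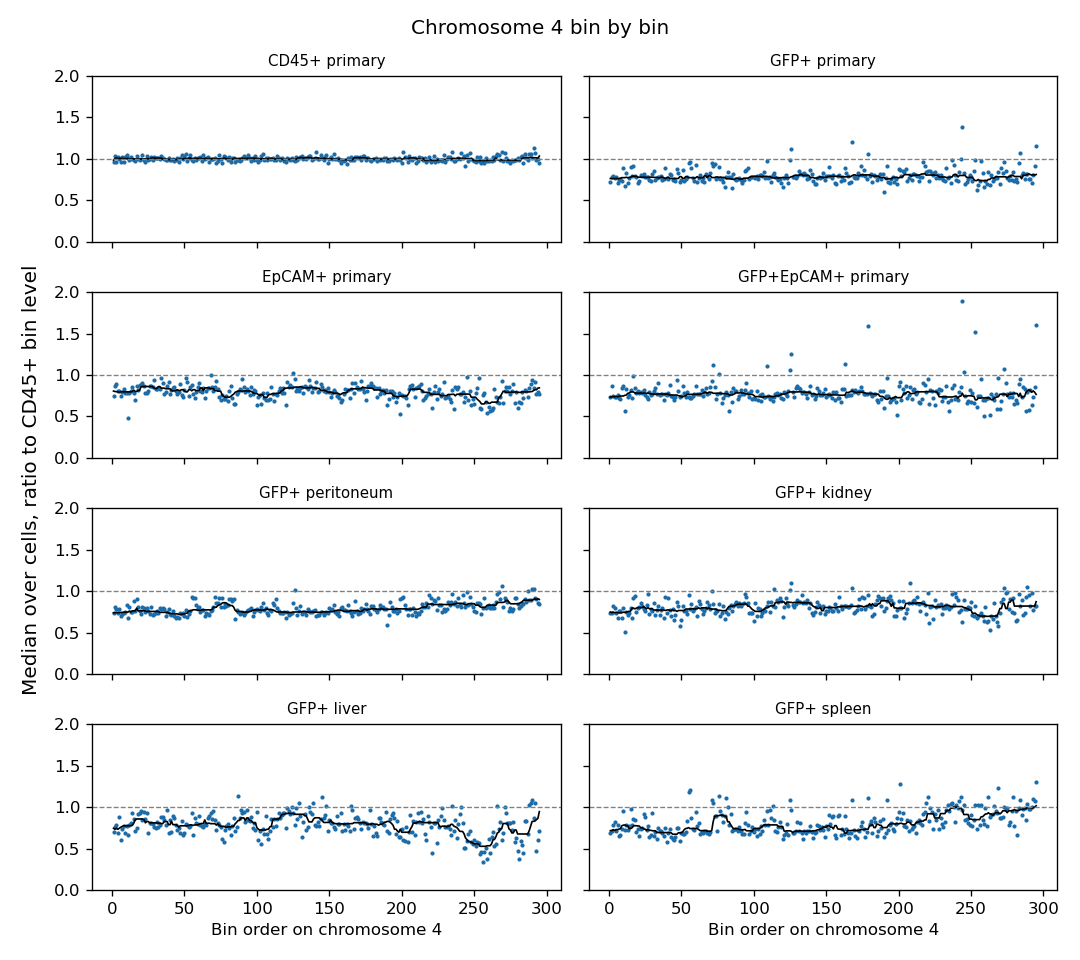
Each panel is 1 sort or site, each point 1 of the 295 bins in order along chromosome 4, and the vertical axis the median over cells on the within-cell scale. The black line is a running median over neighbouring bins, near 1 in CD45+ cells because the scale is set on them, and below 1 over most of the chromosome in the tumour sorts.

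The chromosome was also divided in bin order into 10 segments of 29 or 30 bins each. In GFP+ primary cells the lower level ran from end to end, and in some other sorts single mice had segments near or above 1. These were segments 9 and 10 in spleen of mouse 2 (1.04 and 1.07) and segments 2 and 5 in EpCAM+ cells of mouse 3 (0.992 and 1.01). Segment 8 in EpCAM+ cells of mouse 2 was at 0.982. GFP+ primary cells had means over 3 mice of 0.761, 0.766, 0.771, 0.787, 0.759, 0.787, 0.785, 0.806, 0.835 and 0.832 from segment 1 to segment 10. The SD over mice in GFP+ primary cells was 0.012 in segment 4 and up to 0.082 in segment 9. Segment 10 (bases 139845752 to 155630120) was 0.715 ± 0.043 (SD, n = 3) in GFP+EpCAM+ cells, 0.754 ± 0.055 (SD, n = 3) in EpCAM+ cells and 0.904 ± 0.044 (SD, n = 3) in peritoneum. In spleen it was 1.07 and 0.952 in mice 2 and 3, against 0.728 and 0.760 in segment 1 of the same mice. Both spleen mice rose toward the end, and in GFP+ primary cells mouse 2 did (0.689 to 0.907) while mouse 1 (0.793 and 0.788) and mouse 3 (0.80 and 0.802) stayed level. Peritoneum rose from segment 1 to 10 in mice 1 to 3 (0.753 to 0.899, 0.753 to 0.863 and 0.801 to 0.951). Kidney rose in mice 2 and 3 (0.701 to 0.808 and 0.833 to 0.870). GFP+EpCAM+ cells were lower in segment 10 in mice 1 to 3 (0.780 to 0.764, 0.782 to 0.693 and 0.793 to 0.688). EpCAM+ cells of mice 1 and 2 stayed level and mouse 3 was lower (0.918 to 0.705). The difference between sites at this end of the chromosome was not tested. In liver segment 9 was 0.696 and 0.602 in mice 2 and 3, below each other segment of the same mouse.

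Segment 6 (bases 81599079 to 96225906, 29 bins) was examined bin by bin as the stretch of mm9 with coordinates nearest in number to those of the start sites above, with no gene placed in it. Its bins ran from 0.713 to 0.990 over all tumour-sort cells, with a median of 0.774. In GFP+ primary cells they ran from 0.699 to 1.21, in GFP+EpCAM+ cells from 0.673 to 1.13, in peritoneum from 0.695 to 0.875 and in spleen from 0.626 to 1.09. The bin called higher in GFP+EpCAM+ cells, chr4:88369972-88927114, lies in segment 6. Its medians by mouse were uneven: 0.715, 0.890 and 2.57 in GFP+ primary cells and 0.786, 2.18 and 0.893 in peritoneum of mice 1 to 3. In mice 2 and 3 they were 3.96 and 0.771 in spleen, 0.938 and 0.802 in kidney, and 0.885 and 0.623 in liver. None of the 29 was as low as the lowest bins elsewhere on the chromosome in the tumour sorts together.

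Within single cells the segments varied. All 10 segments were under 0.85 in 15 of 52 GFP+ primary cells, 5 of 17 EpCAM+, 7 of 23 GFP+EpCAM+, 10 of 65 peritoneum, 4 of 30 kidney, 1 of 10 liver and 4 of 21 spleen cells, and in 0 of 44 CD45+ cells. At least 8 segments were under 0.85 in 33 of 52 GFP+ primary cells and 1 of 44 CD45+ cells. A segment under 0.2 occurred in no cell of any sort. A segment under 0.5 occurred in 3 cells each of the CD45+, GFP+ primary, EpCAM+, GFP+EpCAM+ and liver sorts, 4 peritoneum, 6 kidney and 1 spleen cell. Kidney cell 60 of mouse 3, the lowest of all, ran from 0.246 to 0.548 over its segments, and spleen cell 22 of mouse 2 from 0.301 to 0.837. The noise of amplification in these libraries was not measured separately, so its part in the unevenness was not tested.

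A focal loss was looked for as a bin whose group mean over the CD45+ mean was under 0.5 of the median of the 5 bins on each side, and called deep under 0.2. On chromosome 4 such bins numbered 2 in GFP+ primary cells (1.44% of autosomal bins, 0.678% of chromosome 4 bins), 5 in EpCAM+ (2.18%, 1.69%), 5 in GFP+EpCAM+ (1.86%, 1.69%), 7 in liver (2.43%, 2.37%), 4 in peritoneum (1.48%, 1.36%), 4 in spleen (1.59%, 1.36%) and 2 in kidney (1.67%, 0.678%). The share on chromosome 4 was below that of all autosomes in each of the 7 sorts, and this direction depended on the setting. With summed counts the share on chromosome 4 was the higher one in 6 of 7 sorts (0.678% against 0.529% in GFP+ primary cells), with medians over cells in 7 of 7 (0.339% against 0.0846% to 0.317%), and at 200000 reads per cell in 2 of 7, kidney and liver. The lowest value in GFP+ primary cells, peritoneum, kidney and spleen was at chr4:102062159-102524236 (0.252, 0.279, 0.327 and 0.283). In EpCAM+, GFP+EpCAM+ and liver cells it was at chr4:8629491-9084829 (0.154, 0.195 and 0.227), and the first 2 of these were the only deep ones.

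The CD45+ means of these 2 bins were high. In chr4:8629491-9084829 the mean over CD45+ mice was 4.03, and the median over cells was 1.10, 1.10 and 4.59 in mice 1, 2 and 3, so that mouse 3 stood apart by medians too. The EpCAM+ medians there were 0.578, 0.356 and 0.487, below all 3. In chr4:102062159-102524236 the CD45+ mean was 3.22 and the medians were 1.05, 1.49 and 2.09, while those of GFP+ primary cells were 0.659, 0.585 and 0.640, also below all 3. Over the 11 bins that met the rule in any sort, the CD45+ mean was above 1.5 in 10 and was 0.706 in chr4:136184482-136630875, where GFP+ primary cells were at 0.485 and GFP+EpCAM+ cells at 0.306. The other 8 were the first bin and those starting at 52805574, 108635823, 125462153, 131976639, 132450901, 133386557 and 155120394. With medians over the cells of each mouse, averaged over mice, 1 bin was left in each sort, chr4:8629491-9084829, at 0.255 to 0.491 of its neighbours. Its CD45+ level on that measure was 2.26, which includes mouse 3. At 200000 reads per cell no bin was deep.

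**Figure D4:**
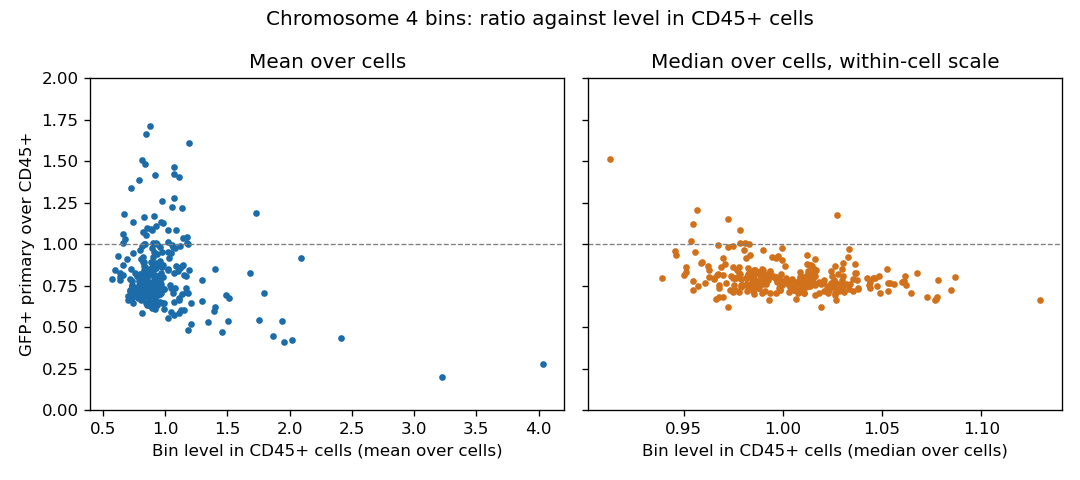
Each point is 1 of the 295 bins, with its level in CD45+ cells on the horizontal axis and the ratio of GFP+ primary to CD45+ cells on the vertical axis, by means over cells on the left and by medians on the within-cell scale on the right. With means, the 2 lowest ratios sit at the 2 bins with the highest CD45+ level, 4.03 and 3.22, and with medians no bin lies below 0.5.

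A homozygous deletion spanning a bin would leave it without reads of its own DNA, and bins with 0 reads were counted. A deleted bin that held even 1 read placed there from elsewhere would be missed, and such reads were not measured. The counts below therefore do not decide whether such deletions occur. Of 218 tumour-sort cells with at least 200000 reads, no bin of chromosome 4 was empty in more than 1 cell (0.459%, exact Clopper-Pearson 95% interval 0.0116 to 2.53%, which covers counting error only). In peritoneum 4 bins and in spleen 1 bin had any such cell. A deletion much shorter than a bin would not empty it, and such deletions were not detectable at this resolution.

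RNA of the locus was present in tumour cells. Cdkn2b, the p15Ink4b gene, was at 3.45, 1.70 and 1.32 CPM in CD45+ cells of mice 1 to 3 and at 592, 293 and 186 CPM in GFP+ primary cells, with no overlap. The log2 difference was 7.43 (SE 1.53; edgeR adjusted p = 0.0141 over 19703 genes, of which 0.188% were called higher and 0.629% lower). Without mouse 1, 2 or 3 the edgeR adjusted p was 0.087, 0.159 and 0.238. Cdkn2b was also called higher in EpCAM+ cells (620, 293 and 174 CPM; 0.178% of genes higher) and in GFP+EpCAM+ cells (114, 41.6 and 150 CPM; 0.508% of genes higher). Among the sites, peritoneum had 144 to 258 CPM, kidney 69.6 and 204, liver 131 and 368 and spleen 80.6 and 308.

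Cdkn2a, counted over both start sites together, was at 0.67, 0.139 and 0.715 CPM in CD45+ cells and at 0.401, 54.8 and 20.8 CPM in GFP+ primary cells. Mouse 1 of the GFP+ cells lay among the CD45+ values and mice 2 and 3 above them, and the difference did not pass the test (log2 5.90, SE 2.12; edgeR adjusted p = 0.164; DESeq2 0.00903). At least 1 count was found in 6 of 31, 13 of 18 and 14 of 27 GFP+ primary cells of mice 1 to 3 and in 6 of 22, 3 of 20 and 5 of 14 CD45+ cells. Mouse 1 of the GFP+ cells again lay among the CD45+ mice. The CD45+ cells held at most 4 counts of it, and the highest GFP+ primary cell held 2258, with median totals of 784903 and 1614520 counts. Since exonic genomic reads count as RNA, a low count need not be a transcript, and their share was not tested. Peritoneum had 5.60 to 103 CPM of Cdkn2a over mice, kidney 8.67 and 17.6 CPM, liver 1.87 and 2.36 CPM and spleen 4.20 and 8.87 CPM.

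**Figure D5:**
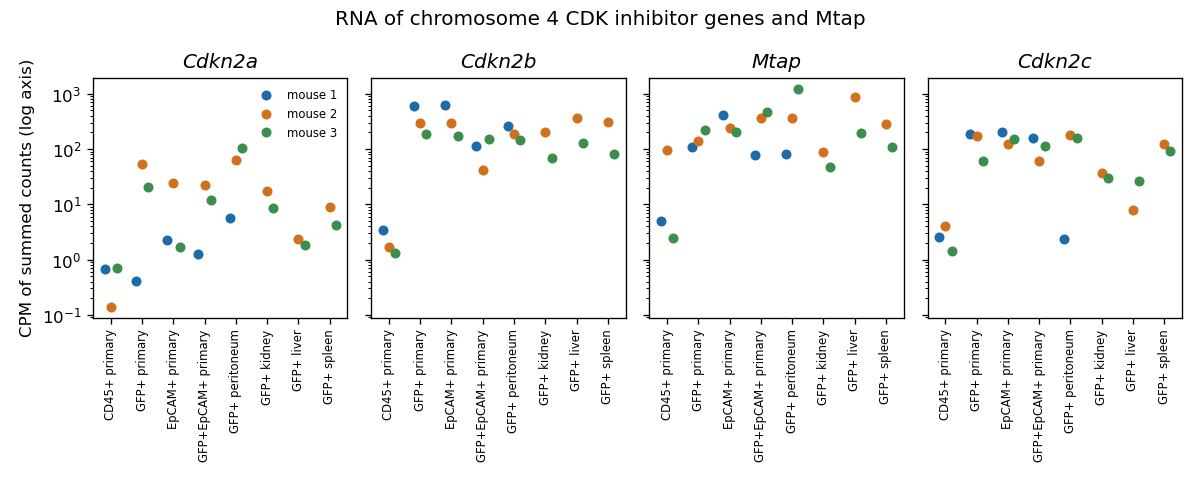
The 4 panels give CPM of counts summed per mouse and sort, on a log axis, for Cdkn2a, Cdkn2b, Mtap and Cdkn2c, with 1 point per mouse. Cdkn2b lies at 1.32 to 3.45 CPM in CD45+ cells and at 186 to 592 CPM in GFP+ primary cells, and Cdkn2a varies from 0.401 to 54.8 CPM among the 3 mice of the latter.

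Counts of these genes were also found in cells with a low chromosome 4. Of 225 tumour-sort cells with a chromosome 4 level under 0.85 and RNA that passed the filter, 109 had a count of Cdkn2a (48.4%), 193 of Cdkn2b (85.8%), 204 of either (90.7%) and 206 of Mtap (91.6%). In CD45+ cells, as the level to read these shares against, a count was found in 14 of 56 for Cdkn2a, 29 for Cdkn2b (51.8%) and 33 for Mtap (58.9%). A single count is not taken as a level of expression. In bulk GFP+ cells of the primary tumours of mice 1 and 2 Cdkn2b was at 94.5 and 150 CPM and Cdkn2a at 4.64 and 7.99 CPM, in libraries of 2369371 and 19160676 counts. Bulk GFP+ cells of the peritoneum had 84.3 and 1.46 CPM, and the GFP-negative peritoneum library had 44 and 2 counts in 785644. Bulk CD45+ cells had 3 counts of Cdkn2b (24.8 CPM) and 0 of Cdkn2a in 121118 counts, too few to set a level, and the GFP-negative primary library of 8520 counts had 0 of both.

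The neighbours of the locus showed no common direction. Of 13 genes listed around Cdkn2a, 11 passed the expression filter, and 1 (Cdkn2b) was called higher and 0 lower by edgeR. That is 9.09% higher, beside 0.188% of all genes, where 0.629% were lower. An unadjusted p under 0.05 was reached by 3 of the 11, beside 3415 of all 19703 genes. The median log2 difference of the 11 was 0.98. Mtap was at 4.93, 95.5 and 2.47 CPM in CD45+ and 111, 140 and 218 CPM in GFP+ primary cells, with no overlap, and did not pass the test (log2 1.92, SE 1.37; edgeR adjusted p = 0.484). Hacd4, a fatty acid elongation enzyme, was at 3.45, 8.30 and 34.8 against 1.06, 0.0134 and 0.640 CPM (log2 −5.26; edgeR adjusted p = 0.150).
Focad had a log2 difference of 2.61, Mllt3 of 3.14, Klhl9 of 0.14, Ifne of 0.98, Dmrta1 of −1.32, Elavl2 of −1.44 and Izumo3 of −0.47, none of them called. Ifnb1 and Tusc1 were at no more than 0.479 CPM in any of the 6 sums and were not tested.

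In the pathway downstream of the locus, 0 of 16 genes of the p16Ink4a and p19Arf pathways were called by edgeR. Of all genes 0.188% were called higher and 0.629% lower. An unadjusted p under 0.05 was reached by 3 of the 16, beside 3415 of all 19703 genes. The median log2 difference of the 16 was 0.51. Cdkn2c, which encodes p18Ink4c and also lies on chromosome 4, was at 2.54, 4.12 and 1.43 CPM in CD45+ and 191, 176 and 60.6 CPM in GFP+ primary cells, with no overlap (log2 5.55, SE 1.57; edgeR adjusted p = 0.0884; DESeq2 1.12e-05). Cdk6, a kinase that p16Ink4a inhibits, was at 24.6, 39.9 and 164 against 204, 601 and 788 CPM, and Cdk4 at 4.02, 58.4 and 42.4 against 69.1, 239 and 339 CPM. The GFP+ values lay above all CD45+ values for both kinases, with edgeR adjusted p = 0.267 and 0.382. Cdkn1a, the p53 target that encodes p21, was at 187, 826 and 240 against 11.1, 0.241 and 21.2 CPM, below all CD45+ values (log2 −5.46; edgeR adjusted p = 0.139). Trp53 was at 2.82, 1.75 and 78.2 against 45.4, 216 and 162 CPM, with overlap.

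Elsewhere on chromosome 4, 1 of 34 listed genes was called lower (2.94%, beside 0.629% of all genes) and 0 higher (beside 0.188%). Lck, the T cell kinase, fell from 646, 36.2 and 210 CPM in CD45+ cells to 0.567, 0.321 and 0.166 CPM in GFP+ primary cells (log2 −9.34, SE 2.08; edgeR adjusted p = 0.0259, and 0.0928, 0.145 and 0.358 without mouse 1, 2 or 3). Laptm5, a lysosomal protein of leukocytes, was at 520, 3050 and 1610 against 1.16, 0.321 and 122 CPM (edgeR adjusted p = 0.114). Of genes used by most cells, Rps6, a ribosomal protein, was at 212, 199 and 83.2 against 343, 254 and 297 CPM, and Ybx1, an RNA-binding protein, at 303, 355 and 420 against 504, 553 and 613 CPM. For both genes the GFP+ values lay above all CD45+ values, and neither was called. Other listed genes went the other way without being called, among them Cdc42 (log2 −0.40), Eno1 (−0.26), Tln1 (−1.57) and Cap1 (−2.42). A negative difference was found in 15 of the 34 (44.1%), beside 53.5% of all genes.
The median log2 difference was 0.03 over these 34 genes, −0.52 over all 1141 chromosome 4 genes tested and −0.20 over all 19703 genes. Of the 1141 genes 2 were called higher (0.175%) and 8 lower (0.701%), close to the 0.188% and 0.629% of all genes. In GFP+EpCAM+ cells the last 2 medians were −0.78 and −0.52, and in EpCAM+ cells −0.36 and −0.09. All 3 comparisons share the CD45+ samples. The biological coefficient of variation was 1.16 between RNA sums and 0.207 between DNA sums.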

How the data were processed

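RNA and DNA of single cells and 6 bulk libraries were measured per the labels' protocols with SMART-Seq2-style amplification followed by SeqXE whole genome amplification. The DNA values are counts of reads in 5000 bins, as deposited by the authors, and the RNA values are expected counts of each gene, in the form the authors deposited. STAR, kallisto and Bowtie 1.0 and the build mm9 are named per the submitters' processing notes, without a role for each. The tool behind each kind of value is not given in the sources used. From the 24520 rows of RNA, the 92 of ERCC spike-ins (0.00035% of counts) and 4 whose symbol occurs again were removed.

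DNA was analysed in 318 cells with at least 50000 reads and RNA in 368 cells with at least 500 genes and 10000 counts. Counts were summed per mouse and sort (DNA 1569099 to 47139765, RNA 535652 to 84359744 after rounding to whole numbers). A single cell gave up to 46.6% of a DNA sum (EpCAM+ cells of mouse 2). Of 2941 pairs of libraries compared by chi-square, 2 fell below sampling noise.

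Bins were tested with edgeR 4.0.16 (quasi-likelihood, 1 fit of 21 sums, autosomal totals as library size, filterByExpr) and genes with TMM in 1 fit of the 12 sums of the primary sorts. Chromosomes were tested with limma 3.58.1. R was 4.3.3, DESeq2 1.42.0, Python 3.11.15, pandas 2.3.3 and scipy 1.17.1. Adjustment was by Benjamini-Hochberg over all features at 0.05. The fits were tested on simulated data.

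Alternatives were DESeq2, TMM or library totals, no filter, other read and cell filters, each cell weighted alike and medians over cells (limma), the mouse as a block, and dropping each mouse in turn. Named bins are those meeting the focal rule and the 5 most negative called bins of GFP+ primary cells with the same direction in every mouse. Named genes are the members of 3 lists around Cdkn2a, of its pathways and of other chromosome 4 genes, in full for the first and otherwise those called or at 100 CPM or more, of which some are given. The members and lists were chosen with earlier results of these data known.

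Mouse numbers in the labels mark samples of the same animal. Deviations from group means had a median correlation of 0.19 between DNA sums of the same mouse (66 pairs) and −0.096 of other mice (126 pairs), and 0.062 (18 pairs) and −0.043 (36 pairs) for RNA.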

Additional observations from a re-analysis of the deposited data

How the results depend on the processing

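The level of chromosome 4 as a whole kept its direction and its side of the threshold in all 7 settings tried for each of its 4 comparisons with CD45+ cells. The log2 difference ran from −0.36 to −0.29 in GFP+, −0.39 to −0.35 in GFP+EpCAM+, −0.38 to −0.28 in EpCAM+ cells and −0.34 to −0.29 over the sites, with limma adjusted p up to 0.00796, 0.00219, 0.0201 and 0.0021. The GFP+ difference of −0.203 was −0.211 and −0.202 at 200000 and 20000 reads, −0.213 by medians and −0.220 to −0.175 with a mouse left out. As a within-mouse difference, with the pairing of mice kept, it was −0.203 (exact sign-flip p = 0.25, the smallest possible).

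Counts of single bins depended on the method, and the cause was not tested. The share of all autosomal bins called lower in the same setting is given in brackets. Called lower in GFP+ cells were 6 bins (0.677%), and 82 by DESeq2 (9.37%), 3 with cells weighted alike (0.402%) and 1 by medians (0.0634%). With a mouse left out there were 0 to 5 (0.0% to 0.803%). In GFP+EpCAM+ cells the 48 bins (5.77%) became 121 (11.7%), 15 (2.18%), 4 (0.444%) and 0 to 26 (0.0% to 3.57%). In EpCAM+ cells the 9 (0.909%) became 24 by DESeq2 (2.79%), 5 at 200000 reads (0.571%), 2 by medians (0.148%) and 0 to 6 with a mouse left out (0.0% to 1.08%). Over the sites the 15 (2.73%) became 121 by DESeq2 (15.0%) and 85 with TMM (9.13%). They became 8 with cells weighted alike (2.01%) and 2 by medians (0.275%). Leaving out a mouse gave 1 to 80 over the sites (0.0423% to 9.2%). With the replicate block the counts were 7 (1.23%), 113 (12.2%), 10 (1.18%) and 25 (4.14%). Spleen against the primary tumour gave 0 to 2 changed bins with a mouse left out, 2 without mouse 3. Of 45 listed chromosome 4 genes 2 were called, where 161 of all 19703 genes were. DESeq2 called 7 of the 45, where it called 1901 of all 19703, and the block gave 2, beside 142. Without mouse 1, 2 or 3 the listed genes called were 0, 0 and 1, beside 157, 49 and 19 of all genes tested. Where a mouse was left out, sorts with 1 sum took their spread from the others. The number of focal bins rose to between 6 and 20 per sort at a limit of 0.67. That is 2.03% to 6.78% of chromosome 4 bins, beside 3.72% to 7.76% of autosomal bins, and the chromosome 4 share was higher in 0 of 7 sorts. By medians the number fell to 1 per sort, 0.339% of chromosome 4 bins beside 0.0846% to 0.317% of autosomal bins. At 116.9 reads per bin and a median bin of 489822 bases, shorter or rarer losses were below what these data can show.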
